A study of Mus musculus with 18 samples.

Results

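The genes described here are 10 subunits of the Polycomb repressive complexes: Ezh2, Eed and Suz12, which form the core of Polycomb repressive complex PRC2, its accessory subunits Jarid2, Mtf2, Phf19 and Aebp2, and Rnf2, Ring1 and Pcgf6 of PRC1. They were taken by gene name from a table of estimated read counts, in which they make up 10 of 47643 genes and 89 of 115125 transcript entries. The study measured RNA of mouse embryonic stem (ES) cells with RT-RamDA, in which cDNA is amplified from an RNA template during reverse transcription itself, and compared the primers that start that reaction. All RNA came from the ES cell line 5G6GR, grown without feeder cells on gelatin in serum medium with leukemia inhibitory factor, puromycin and blasticidin, so the cell line and drugs are common to all groups. Purified total RNA diluted to 10 pg was primed with not-so-random primers plus oligo(dT) (NSRdT), random hexamers plus oligo(dT) (N6dT), not-so-random primers alone (NSR), random hexamers alone (N6) or oligo(dT) alone (dT), and each library received 17 cycles of PCR. Bulk libraries were made from 200 ng of total RNA with a kit that removes ribosomal RNA, and received 7 cycles. Each of the 6 groups has 3 libraries. The labels do not state separate cultures or extractions, so the p-values below measure the spread between libraries, which may be technical, and with purified RNA fewer cells of a type and less RNA per cell cannot be told apart.

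Polycomb proteins keep developmental genes silent in ES cells. PRC2 places methyl groups on lysine 27 of histone H3 through the enzyme Ezh2, while PRC1 attaches ubiquitin to histone H2A through the ring-finger enzymes Rnf2 (also called Ring1b) and Ring1. The accessory subunits of PRC2 steer it to chromatin, and Pcgf6 defines one of the variant forms of PRC1. Oligo(dT) starts cDNA at the poly(A) tail, whereas random and not-so-random primers can start along the whole RNA, and the not-so-random set leaves out sequences that match ribosomal RNA.

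The libraries held between 5333546 and 10234690 estimated counts on mouse transcripts, and the 10 genes received between 5407 counts (N6 replicate 3) and 21164 counts (dT replicate 3). This was 0.135 to 0.144% of the counts in NSRdT libraries, 0.0904 to 0.0962% in N6dT, 0.106 to 0.114% in NSR, 0.0709 to 0.0875% in N6, 0.180 to 0.210% in dT and 0.162 to 0.194% in bulk libraries. Levels are given as CPM, counts scaled to a common library size by the trimmed-mean (TMM) method over all 18 libraries. The summed level of 8 ES cell markers was 1667 to 1953 CPM with N6 or NSR alone, 3180 to 3355 CPM with dT and 2129 to 2706 CPM in bulk. None of these 8 genes was at 0 throughout, while 7 fibroblast markers summed to 0.220 to 8.58 CPM with 1 of them at 0 in every library. Bulk replicate 2 stood apart, with 12 primitive endoderm markers at 5532 CPM, against 578 CPM in bulk replicate 1 and 506 CPM in bulk replicate 3, so the calls against bulk are also given without it. Markers of trophectoderm (6 genes) reached 46.1 CPM in that library, against at most 30.6 CPM elsewhere, and markers of neuroectoderm (5 genes) lay between 18.95 and 61.3 CPM in every library.

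At the level of whole genes, in random primers (N6 and NSR, 6 libraries) against dT (3 libraries), 1 member passed the test: Mtf2, which recruits PRC2 to CpG islands and was lower with random primers. That is 1 of 10 members, against a background of 17.1% of the 15682 genes tested with edgeR's quasi-likelihood test at a Benjamini-Hochberg adjusted p under 0.05. Of these genes, 9.54% were called higher and 7.54% lower. The members had a median log2 fold change of -0.27, against 0.13 over all genes tested, and 3 of the 10 had an unadjusted p under 0.05. Of their transcripts, 16 of the 66 member transcripts tested were called, 11 higher and 5 lower with random primers, against 8.44% of all 36177 transcripts (4.94% higher and 3.5% lower). The other 23 of the 89 member transcripts did not pass the filter on low counts, which a transcript abundant in one group alone can pass, so the 66 are not all members. Of the 66, 27 were at 0 after rounding throughout 1 side of this comparison. They passed the filter only through other groups, so nothing is read from their direction or from the number of transcripts called. Fold changes are TMM-scaled. Scaling by library totals alone moves the all-gene median to -0.80 from 0.13, and every gene-level value with it, so that Ezh2, Aebp2 and Jarid2 then turn lower with random primers. Under TMM 1496 genes were called higher and 1183 lower, and under library totals 818 were higher and 4330 lower, with 7 of the 10 members called, all lower.

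**Figure D1:**
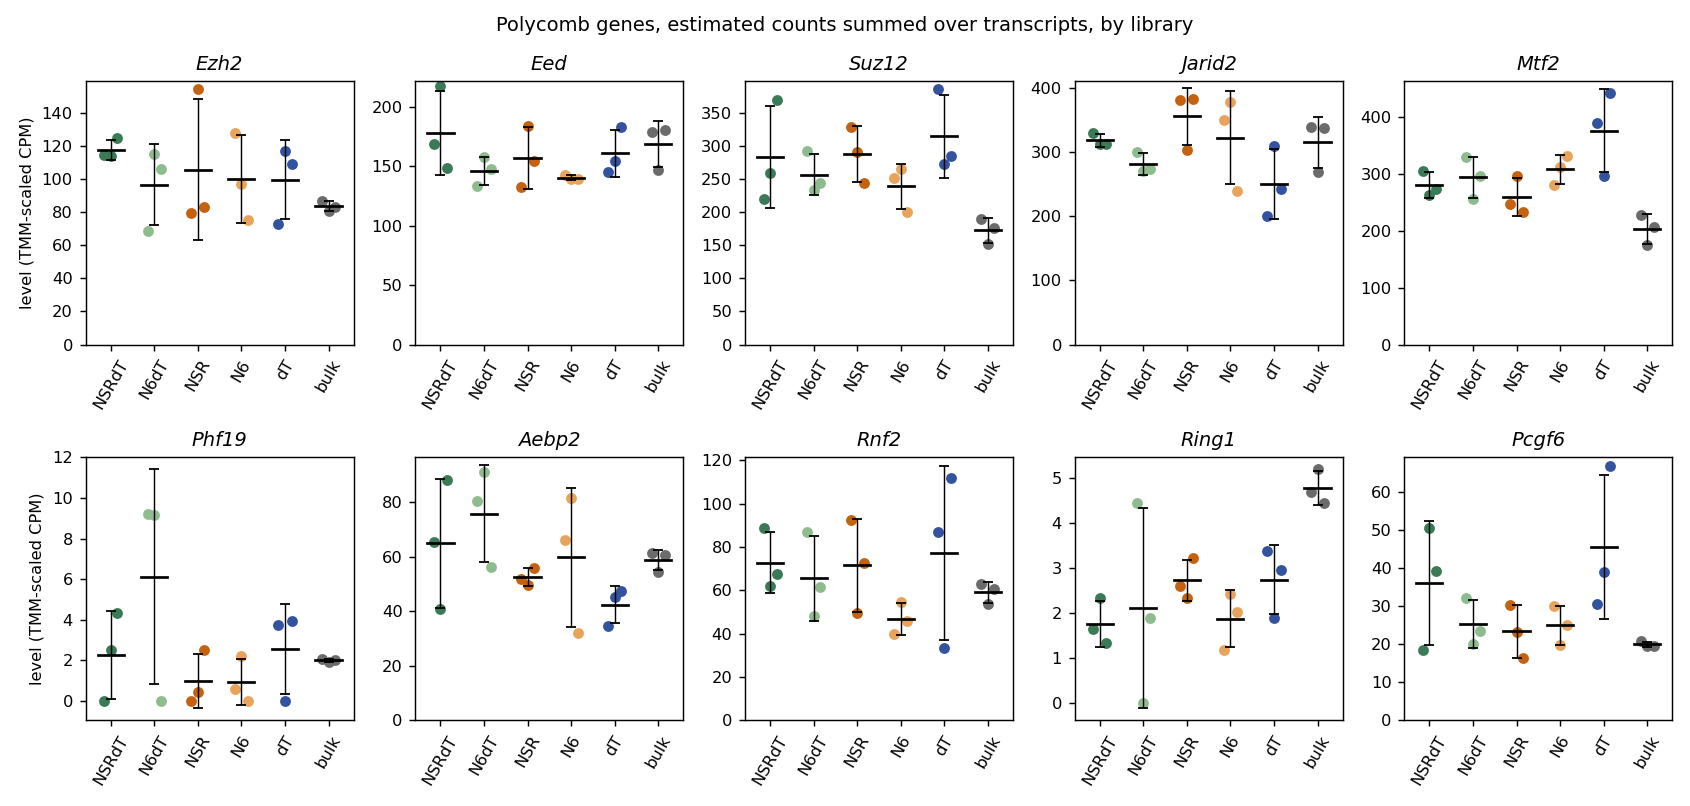
TMM-scaled CPM (linear axes, one scale per gene) of the 10 Polycomb genes, grouped as NSRdT, N6dT, NSR, N6, dT and bulk, with a point per library, a line at the mean of 3 and whiskers for the SD. Jarid2, Mtf2 and Suz12 lie above 150 CPM in all 18 libraries, and Phf19 and Ring1 lie below 10 CPM in all of them.

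Ezh2, the methyltransferase of PRC2 (chr6:47530139-47595341, minus strand, GRCm38), had levels of 114, 114 and 125 CPM in NSRdT libraries and 68.8, 115 and 106 CPM in N6dT libraries. It had 79.3, 155 and 83.1 CPM in NSR, 128, 96.8 and 74.9 CPM in N6, 72.7, 117 and 109 CPM in dT, and 86.5, 80.8 and 83.2 CPM in bulk. The primer sets overlapped one another, NSRdT was the tightest of them, and 1 NSR library stood well above its replicates. Random primers against dT gave a log2 fold change of 0.05 ± 0.25 (SE; edgeR adjusted p = 0.930), a value that moved between -0.18 and 0.14 as single libraries were left out. Some of its transcripts were at 0 throughout 1 side of this comparison. Such entries, here and in the genes below, passed the filter on low counts only through other groups. Nothing is therefore read from their direction. Ezh2-013, a 500-nt retained-intron entry near the 3′ end, had estimated counts of 0 in all 6 random-primer libraries and 114, 90.2 and 60.5 in dT libraries, at least 11.9-fold lower with random primers against a floor of 3 counts per library (edgeR adjusted p = 0.0107). Ezh2-015 is a transcript annotated for nonsense-mediated decay whose 3′ end lies 15697 bp upstream of that of the gene. It had 12.9, 9.71 and 28.6 counts in NSR, 36.2, 47.5 and 24.1 counts in N6, and 0 in each dT library. It rose at least 22.9-fold with random primers (edgeR adjusted p = 0.00205). The most abundant entry, Ezh2-001, made up 24.2 ± 13.4% of the gene's counts in NSR and 29.7 ± 17.03% in N6, against 56.3 ± 14.5% in dT and 51.8 ± 7.70% in bulk (SD, n = 3 each), but it was not called (log2 fold change -0.98 ± 0.50 SE, edgeR adjusted p = 0.204). Ezh2-010, which ends 402 bp upstream of it, made up 61.2 ± 11.8% in NSR and 42.3 ± 15.6% in N6, against 17.3 ± 10.34% in dT (SD, n = 3 each), and also missed the threshold (edgeR adjusted p = 0.0541).

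Eed, the subunit that reads trimethylated H3 lysine 27 (chr7:89954654-89980983, minus strand), averaged 178 ± 35.6 CPM in NSRdT, 146 ± 11.9 in N6dT, 157 ± 25.8 in NSR, 140.2 ± 2.11 in N6, 161 ± 19.97 in dT and 169 ± 19.1 CPM in bulk libraries (SD, n = 3 each). When the groups were ranked by mean level, every neighbouring pair overlapped. The N6 libraries (138.8 to 142.7 CPM) still lay below all dT libraries (144.8 to 183.2 CPM) and all bulk libraries (146.7 to 180.7 CPM). Random primers differed from dT by -0.11 ± 0.15 on the log2 scale (SE; edgeR adjusted p = 0.670). Within the gene, 3 entries that end at least 9940 bp upstream of its 3′ end rose with random primers. Eed-004 had 84.2, 34.9 and 62.5 counts in NSR and 8.81, 16.6 and 111 in N6, against 0 in each dT library (at least 42.9-fold higher, edgeR adjusted p = 0.00911). Eed-005 was higher by 1.94 ± 0.56 and Eed-006 by 1.72 ± 0.47 on the log2 scale (SE; edgeR adjusted p = 0.0459 and 0.0337), calls that were lost when single libraries were left out. The short coding entry Eed-007, whose end lies 6 bp from that of the gene, fell: it had 18.6, 0 and 18.6 counts in NSR and 0, 0 and 22.7 in N6, against 339, 713 and 282 in dT, with no overlap (log2 fold change -4.21 ± 1.20 SE, edgeR adjusted p = 0.0420). That call was lost without any 1 of 8 of the 9 libraries, and its use within the gene was lost without dT replicate 2.

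Suz12, the scaffold of the PRC2 core (chr11:79993106-80034123, plus strand), had 221, 259 and 369 CPM in NSRdT and 292, 234 and 244 CPM in N6dT. It had 329, 291 and 244 in NSR, 252, 265 and 199.9 in N6, 387, 273 and 284 in dT, and 190.1, 152 and 176 CPM in bulk. All 15 RT-RamDA libraries were above all 3 bulk libraries under TMM scaling. Under library totals alone Suz12 turned lower than bulk in NSR (-0.27) and in N6dT (-0.60, both log2). For such separations of single genes the share over all genes is not given here. The primer sets overlapped one another, except that the highest N6 library (265 CPM) was below the lowest dT library (273 CPM). Random primers against dT gave -0.26 ± 0.17 (log2, SE; edgeR adjusted p = 0.342). Its main entry Suz12-001 already held 87.8 ± 8.63% of the counts in NSR and 87.9 ± 0.648% in N6, against 97.7 ± 3.91% in dT and 94.0 ± 2.25% in bulk (SD, n = 3 each). Of the minor entries, Suz12-004 (retained intron) had 132, 0 and 105 counts in NSR and 101, 97.1 and 100.3 in N6, against 0 in every dT library, and it rose at least 75.1-fold (edgeR adjusted p = 0.00521). Suz12-003 rose at least 39.9-fold (edgeR adjusted p = 0.0479), a call lost without any 1 of 8 of the 9 libraries, and it was also at 0 in all 3 bulk libraries.

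Jarid2, the accessory subunit that links PRC2 to its recruitment in ES cells (chr13:44729474-44921643, plus strand), differed between primers mainly in which transcripts held its counts. Jarid2-001, Jarid2-002 and Jarid2-003 share one coding length of 3702 nt and differ at both ends. Jarid2-001 starts at position 44731271 and has 18 exons. Jarid2-002 starts at 44730823 and Jarid2-003 at 44730774, with 19 exons each. The last 30 bases of Jarid2-001 and Jarid2-003, read from GENCODE vM21 transcripts on GRCm38, are shown because the groups differ in how the counts were split among these entries. Capitals mark AATAAA or ATTAAA, the common polyadenylation signals.
Jarid2-001: gtttaatAATAAAaagttttttggacattt
Jarid2-003: actgattttgttttagcATTAAActgttca
Jarid2-001 ends at the annotated end of the gene, Jarid2-002 ends 648 bp and Jarid2-003 1535 bp upstream of it. Jarid2-002 holds neither signal in its last 50 bases.

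Jarid2-001 had 1146, 703 and 1176 estimated counts in NSR libraries and 507, 581 and 243 in N6 libraries, against 2630, 4356 and 3371 in dT libraries. Every dT library was above every random-primer library, and the transcript fell by 1.10 ± 0.25 on the log2 scale (SE; edgeR adjusted p = 0.0119; without dT replicate 2 it fell by 0.92, adjusted p = 0.0725). It held 73.4 ± 7.81% of the gene's counts in NSRdT, 72.9 ± 8.47% in N6dT, 41.8 ± 6.82% in NSR, 26.7 ± 5.59% in N6, 97.0 ± 2.22% in dT and 72.3 ± 3.64% in bulk (SD, n = 3 each). Jarid2-002 had 991, 961 and 646 counts in NSR and 772, 471 and 665 in N6, against none in the 3 dT libraries after rounding, at least 604-fold higher with random primers (edgeR adjusted p = 0.000634). It was called in each of the 9 fits that left out 1 library. Where dT was added the counts of Jarid2-002 lay in between but scattered, with 34.5, 1.90 and 614 in NSRdT, 211, 179 and 266 in N6dT, against 52.0, 214 and 189 in bulk. Jarid2-004 (retained intron; at least 46.7-fold, edgeR adjusted p = 0.0104) and Jarid2-005 (retained intron; 2.47 ± 0.59 on the log2 scale, SE, edgeR adjusted p = 0.0164) also rose, the second of them not without dT replicate 2 or dT replicate 3. Jarid2-005 ends 3 bp from the end of the gene, so not every transcript with that end was lower.

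Summed over its transcripts Jarid2 had 329, 312 and 312 CPM in NSRdT and 300.4, 270.1 and 273 CPM in N6dT. It had 380.4, 303 and 382 in NSR, 349.7, 377 and 239 in N6, 200.1, 309 and 241 in dT, and 339, 268 and 337 CPM in bulk. N6 replicate 3 (239 CPM) was below dT replicate 2 (309 CPM) and dT replicate 3 (241 CPM), and NSR replicate 2 (303 CPM) was below dT replicate 2. The other N6 and NSR libraries were above every dT library. The gene was higher with random primers by 0.44 ± 0.16 on the log2 scale (SE), which missed the threshold (edgeR adjusted p = 0.0669). The same gene passed it with another scaling of the same counts (RLE size factors; 0.50, adjusted p = 0.0379).

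Mtf2 (chr5:108065674-108109004, plus strand), the Polycomb-like subunit named above, shows the same split. The ends of its main entry and of Mtf2-009, an entry annotated for nonsense-mediated decay that ends 734 bp upstream, are shown for that reason, with the signal in capitals.
Mtf2-001: gaccaacATTAAAtgtgtgtatttttaaaa
Mtf2-009: cttagccaaagagtaaacagaagaatatta
Mtf2-009 holds neither signal in its last 50 bases. Mtf2-001 also holds a run of 14 A, in capitals in the stretch from position 2045 to 2074, shown because oligo(dT) is complementary to A runs; whether it primed there was not tested.
Mtf2-001 A run: gtacagttAAAAAAAAAAAAAAcaaaaaac
Mtf2-001 had 808, 737 and 345 counts in NSR and 526, 919 and 528 in N6, against 4731, 3737 and 5540 in dT, with no overlap. It fell by 1.60 ± 0.26 on the log2 scale (SE; edgeR adjusted p = 0.000966), and it was called without any 1 of the 9 libraries. Its share of the gene's counts was 70.3 ± 7.50% in NSRdT, 72.9 ± 4.10% in N6dT, 36.0 ± 14.2% in NSR, 42.8 ± 14.7% in N6, 87.7 ± 0.520% in dT and 54.9 ± 3.93% in bulk (SD, n = 3 each). Mtf2-009 had 131, 13.8 and 566 counts in NSR and 129, 1.46 and 160.3 in N6, against 0 in each dT library, which makes it at least 128-fold higher (edgeR adjusted p = 0.0378). Libraries primed alike lay far apart in this entry, and its call was lost without any 1 of 7 of them. Mtf2-015, an entry with no coding frame, rose by 1.82 ± 0.47 (log2, SE; edgeR adjusted p = 0.0266). That call was lost without any 1 of 7 of the 9 libraries, with a replicate block (adjusted p = 0.0611), with no filter (adjusted p = 0.136) and under library totals (0.92, adjusted p = 0.178).

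As a whole gene Mtf2 had 306, 262 and 273 CPM in NSRdT and 329.7, 256 and 296 CPM in N6dT. It had 248, 296 and 234 in NSR, 281, 312 and 331 in N6, 389, 297 and 443 in dT, and 228, 175 and 207 CPM in bulk. The highest values were in dT, but N6 and NSR libraries (284 ± 37.4 CPM, n = 6) reached into the range of dT libraries (376 ± 73.5 CPM, SD, n = 3). The gene fell by 0.41 ± 0.13 on the log2 scale with random primers (SE; edgeR adjusted p = 0.0453). That call rests closely on the set of libraries: it was lost without any 1 of 7 of the 9, with values between -0.59 and -0.31, and with RLE size factors (-0.35, adjusted p = 0.0867).

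Aebp2, a zinc-finger subunit of PRC2 (chr6:140622663-140678472, plus strand), had 64.8 ± 23.5 CPM in NSRdT, 75.8 ± 17.8 in N6dT, 52.4 ± 3.24 in NSR, 59.8 ± 25.4 in N6, 42.3 ± 6.69 in dT and 58.7 ± 3.75 CPM in bulk (SD, n = 3 each). The 3 NSR libraries lay just above the 3 dT libraries, and the spread among N6 libraries was wide, so that random primers against dT gave 0.41 ± 0.30 (log2, SE; edgeR adjusted p = 0.389). Its most abundant entry, Aebp2-001, was not called (-0.05 ± 0.51, SE, edgeR adjusted p = 0.993). Aebp2-005 was called lower with random primers (edgeR adjusted p = 0.0410). It had 3.39, 0 and 0 counts in NSR and 0, 0 and 0.0159 in N6, against 0.0175, 232 and 63.6 in dT, so 1 dT library was as empty as the random-primer libraries. The call was lost without any 1 of 7 of the 9. Phf19, another Polycomb-like subunit (chr2:34893757-34914026, minus strand), was rare, with 0, 2.50 and 4.32 CPM in NSRdT and 9.23, 9.17 and 0 CPM in N6dT. It had 0, 0.439 and 2.49 in NSR, 0.589, 2.23 and 0 in N6, 3.74, 0 and 3.95 in dT and 2.07, 1.91 and 2.05 CPM in bulk. Every primer set had a library at 0, whereas the bulk libraries were within 0.2 CPM of each other. With so few counts no difference was detected (random primers against dT -1.40 ± 1.69, log2, SE, edgeR adjusted p = 0.631).

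Of the PRC1 genes, Rnf2, the main histone H2A ubiquitin ligase of PRC1 in ES cells (chr1:151458004-151500955, minus strand), had 88.8, 62.0 and 67.4 CPM in NSRdT and 86.8, 48.3 and 61.3 CPM in N6dT. It had 92.2, 49.5 and 72.6 in NSR, 39.9, 54.6 and 45.7 in N6, 86.9, 33.3 and 112 in dT, and 63.0, 53.5 and 60.6 CPM in bulk. The dT libraries spanned all the others, and random primers against dT gave -0.42 ± 0.32 (log2, SE; edgeR adjusted p = 0.415). Rnf2-001 held 71.0 ± 31.3% of the counts in NSR and 66.7 ± 36.0% in N6, against 98.9 ± 1.98% in dT and 81.8 ± 2.57% in bulk (SD, n = 3 each), and it was not called (-0.96 ± 0.49, SE, edgeR adjusted p = 0.205). Ring1 (chr17:34020792-34024680, minus strand), the second ring-finger ligase, had 1.76 ± 0.513 CPM in NSRdT, 2.11 ± 2.23 in N6dT, 2.73 ± 0.455 in NSR, 1.87 ± 0.636 in N6, 2.74 ± 0.775 in dT and 4.78 ± 0.386 CPM in bulk (SD, n = 3 each). All 15 RT-RamDA libraries were below the 3 bulk libraries, which lay between 4.45 and 5.20 CPM. Random primers against dT gave -0.27 ± 1.06 (log2, SE; edgeR adjusted p = 0.902).

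Pcgf6 (chr19:47033617-47050906, minus strand), represented by 1 transcript of 2098 nt, had 18.6, 50.6 and 39.1 CPM in NSRdT and 32.1, 20.0 and 23.5 CPM in N6dT. It had 30.3, 23.3 and 16.4 in NSR, 30.1, 19.8 and 25.0 in N6, 30.5, 39.1 and 66.7 in dT, and 20.7, 19.5 and 19.6 CPM in bulk. Each of the 6 N6 and NSR libraries was below each of the 3 dT libraries, though the nearest values, 30.3 CPM in NSR and 30.5 CPM in dT, are almost equal. The log2 fold change of -0.91 ± 0.35 (SE) did not pass the threshold (edgeR adjusted p = 0.0872). To set the members against each other, each transcript's level was divided by its own length and summed per gene. Short entries then weigh more, so the ranks rest on the estimated split of reads between transcripts. Ranks with 1 length per gene are not given here. By this measure Eed was the most abundant in all 6 groups, with 177 ± 20.6 CPM per kb in NSRdT, 144 ± 14.9 in N6dT, 179 ± 17.3 in NSR, 163 ± 9.39 in N6, 129 ± 16.1 in dT and 144 ± 16.9 CPM per kb in bulk (SD, n = 3 each). Mtf2 came next in every primer set, though in NSRdT, NSR and N6 it was above Suz12 by less than the SD of Suz12, while in bulk Jarid2 (81.0 ± 9.10 CPM per kb) and Mtf2 (77.5 ± 7.11 CPM per kb) differed by less than their spread. Ring1 and Phf19 were the lowest pair in all 6 groups. Jarid2 was below Ezh2 with dT (41.4 ± 9.26 and 52.3 ± 9.54 CPM per kb) and above it in the other groups, though in NSRdT and N6dT the difference was smaller than the SD of Ezh2.

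Across the genes, 3 of the 5 entries that fell with random primers end at the annotated 3′ end of their gene, as does 1 of the 11 that rose. Of 12 tested transcripts that end within 10 bp of the annotated 3′ end of their gene, a class chosen after the values were seen, 3 fell and 1 rose, against 5.24% lower and 4.07% higher among the 14609 such transcripts of all genes tested. Of the other 54, 10 rose and 2 fell, against 5.83% higher and 1.62% lower among 18098 such transcripts of all genes. Many of the 54 passed the filter on low counts through the random-primer groups alone, and nothing is read from their direction. Over all 10 genes, transcripts with that end held 66.8 ± 2.45% of the counts in NSRdT, 66.6 ± 1.15% in N6dT, 49.98 ± 2.60% in NSR, 45.6 ± 4.45% in N6, 81.1 ± 3.53% in dT and 65.3 ± 2.51% in bulk (SD, n = 3 each). The 6 random-primer libraries lay between 42.4 and 52.6%, the 6 mixed libraries between 64.0 and 68.4% and the dT libraries between 77.4 and 84.5%, without overlap. The same shares over all genes are not given here, so this separation is not read as a trait of the members. In Jarid2 the share was 45.5 to 57.02% in NSR and 33.4 to 42.9% in N6, against 100.0% in each dT library. In Eed it was 35.3 to 47.9% in NSR and 42.0 to 43.7% in N6, against 80.7 to 90.3% in dT. In Suz12, where Suz12-001 and its near copy Suz12-201 reach the end, it was 88.8 to 97.7% in NSR and 87.1 to 88.3% in N6, against 100.0% in dT. Rnf2 and Aebp2 are poorly described by this class, because their annotated ends are set by the minor entries Rnf2-003 and Aebp2-003, and Pcgf6-201 and Aebp2-201 had no match in vM21. Without bulk replicate 2, the bulk mean of the share over the 10 genes was 66.6%.

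**Figure D2:**
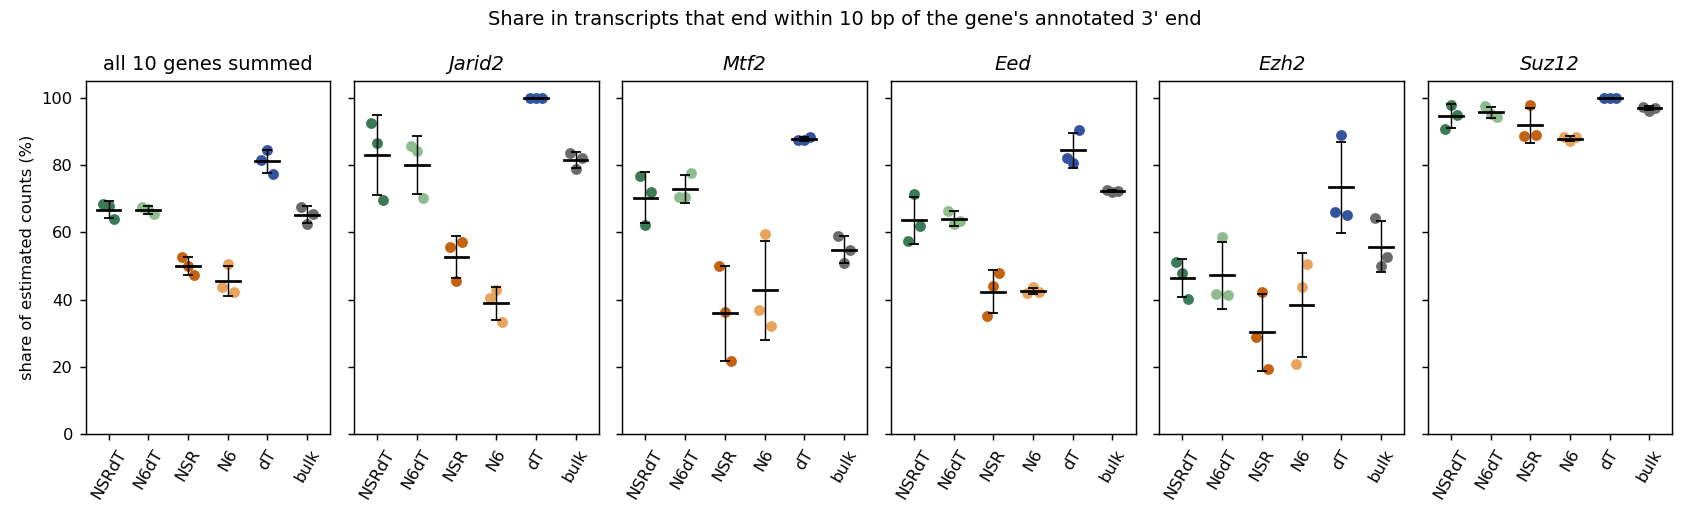
Share of each gene's estimated counts (percent) on transcripts that end within 10 bp of the annotated 3′ end of the gene, for the 10 genes summed and for 5 of them, with a point per library, a line at the mean of 3 and whiskers for the SD. Summed over the 10 genes, N6 and NSR libraries lie at 42.4 to 52.6%, mixed libraries at 64.0 to 68.4% and dT libraries at 77.4 to 84.5%. The shares over all genes are not shown.

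The annotated class of the transcripts differed in the same direction. Protein-coding entries of the 10 genes held 81.7 ± 1.69% of their counts in NSRdT, 84.0 ± 0.396% in N6dT, 74.6 ± 2.88% in NSR, 69.8 ± 4.64% in N6, 93.4 ± 0.635% in dT and 79.3 ± 1.62% in bulk (SD, n = 3 each). Retained-intron entries, 20 of the 89, held 9.67 ± 1.92% in NSRdT, 7.56 ± 1.06% in N6dT, 10.2 ± 0.111% in NSR, 12.4 ± 0.725% in N6, 2.79 ± 0.970% in dT and 11.4 ± 0.899% in bulk (10.9% without bulk replicate 2, and 80.2% for protein-coding entries). Summed over the 10 genes, their share with N6 and NSR was thus close to that of bulk. With dT the summed share was below every other group. These class shares over all genes are not given here either, so nothing particular to the members is read from them. Single genes departed from this. In Eed the mean share was 44.9% in N6 and 44.4% in NSR, against 25.9% in bulk. In Ezh2 it was 3.81 ± 5.21% in N6, 2.54 ± 2.44% in NSR, 6.85 ± 3.90% in dT and 15.1 ± 2.72% in bulk (SD, n = 3 each). The dT mean was the lowest in Eed, Suz12, Jarid2 and Mtf2. Of 16 retained-intron members tested, 5 rose and 1 fell with random primers, against 6.12% higher and 1.04% lower among all retained-intron transcripts tested. Entries annotated for nonsense-mediated decay gave 3 higher and none lower of 9, against 4.04% higher and 2.59% lower among all such transcripts, and protein-coding members 1 higher and 4 lower of 28, against 4.20% higher and 4.75% lower among all. After rounding, 8 of the 16 retained-intron, 4 of the 9 nonsense-mediated decay and 9 of the 28 protein-coding members were at 0 throughout 1 side. Such entries passed the filter on low counts only through other groups, so nothing is read from these directions. Of all protein-coding transcripts in the table, 51.1% hold AATAAA or ATTAAA in their last 50 bases on the transcript strand, and 16 of 38 protein-coding members do. For retained-intron transcripts the share was 21.7%, with 5 of 20 members, and for nonsense-mediated decay 32.5%, with none of 12 members.

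**Figure D3:**
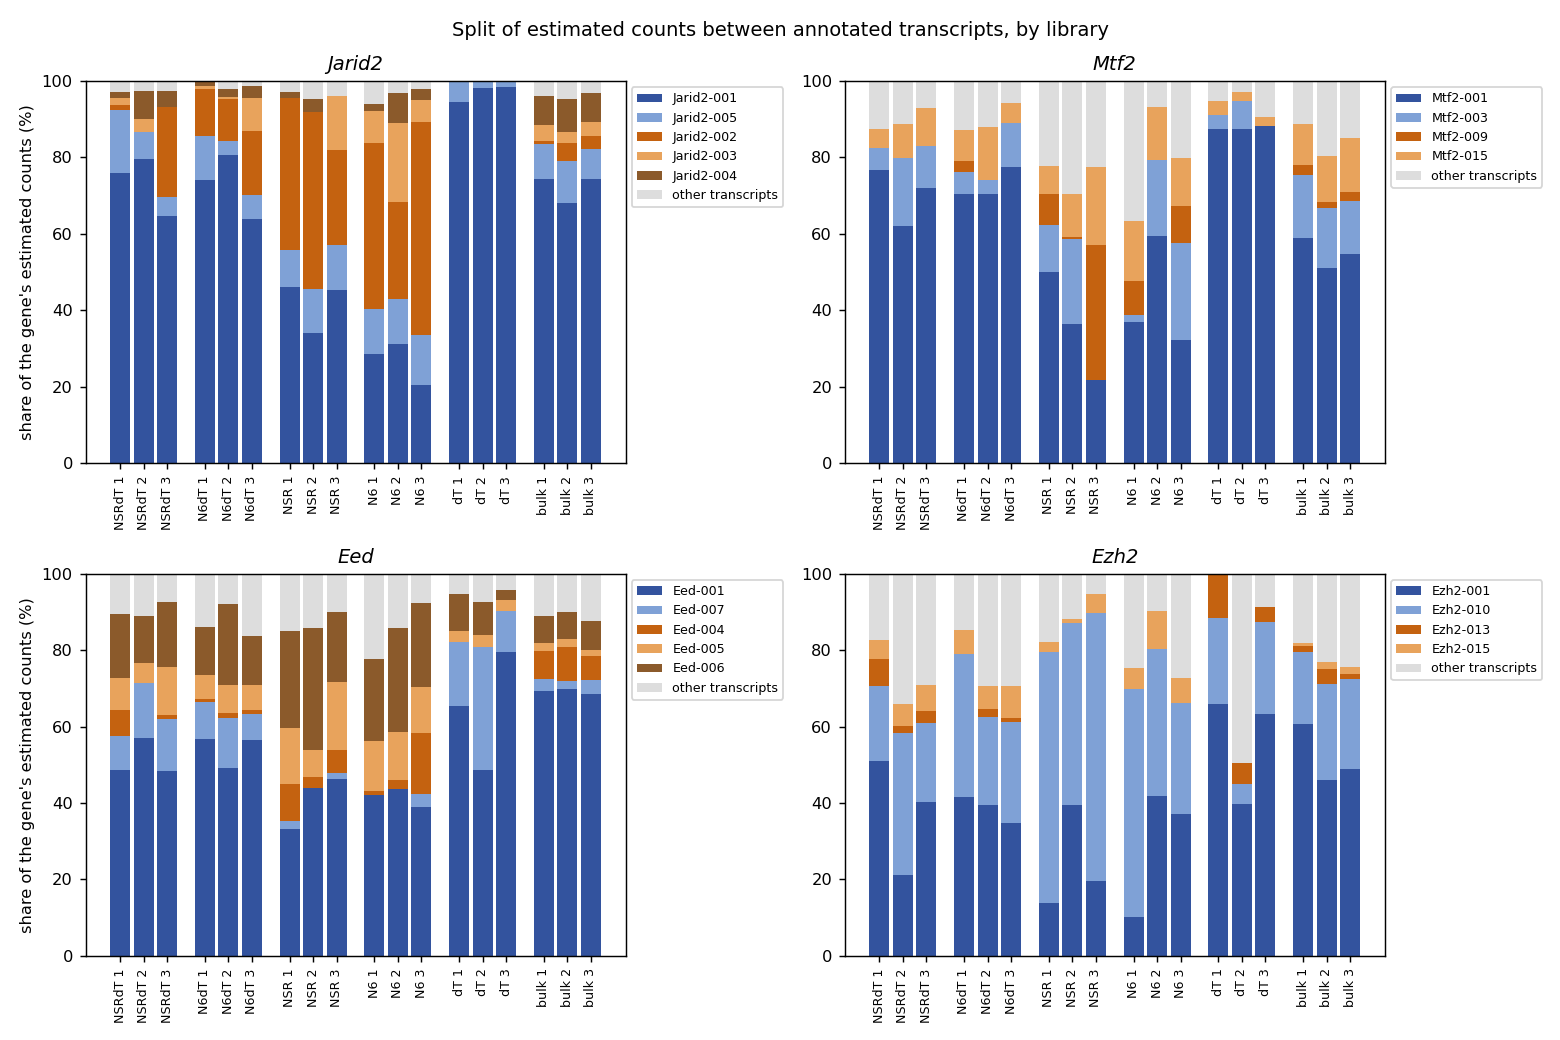
Stacked bars, one per library, of the share of estimated counts (percent) held by named transcripts of Jarid2, Mtf2, Eed and Ezh2, with all other transcripts of the gene in grey. On average Jarid2-001 holds 41.8% in NSR and 26.7% in N6, against 97.0% in dT, and Mtf2-001 holds 36.0% in NSR and 42.8% in N6, against 87.7% in dT.

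The number of entries with a count set dT and bulk apart, while the mixed sets did not lie between random primers and dT. Of the 89, between 51 and 56 had at least 1 count in NSRdT libraries, 51 to 54 in N6dT, 52 to 56 in NSR, 50 to 55 in N6, 28 to 33 in dT and 72 to 75 in bulk. In all, 46 entries were at 0 in every dT library and 9 in every N6 and NSR library. Fewer libraries have to be at 0 for dT than for N6 and NSR together. The same counts over all transcripts are not given here, so nothing is read from them about the members. Tested within genes, 12 of 63 member transcripts differed from the rest of their gene (9 higher and 3 lower with random primers), against 6.24% of 28137 transcripts (4.09% higher and 2.15% lower; edgeR's diffSpliceDGE). Those higher were Ezh2-015, Eed-004, Suz12-003, Suz12-004, Jarid2-002, Jarid2-003, Jarid2-004, Mtf2-009 and Rnf2-002, and those lower were Ezh2-013, Eed-007 and Aebp2-005. Each of the 9 higher entries was at 0 after rounding in every dT library. They passed the filter on low counts only through groups with random primers, so nothing is read from their direction. Nor is anything read from that of Ezh2-013, which was at 0 in every N6 and NSR library. With single libraries left out, Suz12-003 lost this call in 7 of 9 fits, Ezh2-015 and Rnf2-002 in 3, Jarid2-004 in 2 and Jarid2-003, Eed-007 and Aebp2-005 in 1. Without NSR replicate 3, Jarid2-003 dropped to 5.27 and Rnf2-002 to 5.12 on the log2 scale. Some entries share nearly all their sequence with others: 0.318% of the 31-base words of Jarid2-001, 0.982% of Jarid2-002 and 0.909% of Mtf2-009 occur in no other transcript of the gene, although 18.2% of those of Mtf2-001 and 40.9% of those of Aebp2-001 do. The split of reads between entries is therefore an estimate, and its own error is not in the table. The median coefficient of variation over the 10 genes was 0.166 to 0.241 in the primer sets and 0.0821 in bulk, and for their most abundant transcripts 0.217 to 0.469 in the primer sets and 0.103 in bulk. The transcript value was the higher one in every group except N6dT, where it was 0.217 for transcripts and 0.241 for genes.

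NSR was compared with N6, averaging over the libraries with and without dT, to see what leaving out the ribosomal sequences does. No member was called by edgeR at the gene level, none had an unadjusted p under 0.05 and DESeq2 called none, against a background of 0.172% of genes. Log2 fold changes ran from -0.68 ± 1.46 (Phf19) to 0.38 ± 0.26 (Rnf2; SE), and those of the 5 most abundant genes were between -0.16 ± 0.11 (Mtf2) and 0.22 ± 0.12 (Eed). Of the member transcripts, edgeR called 0 (5 with an unadjusted p under 0.05), against 0.058% of all transcripts. The interaction of NSR with added dT, a contrast chosen after the values were seen, was called for no member, with unadjusted p-values of 0.321 (Pcgf6) or more in edgeR.

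Adding dT to the random primers gave 0 members called by edgeR at the gene level, 0 with an unadjusted p under 0.05 and 0 by DESeq2 (background 2.17%). Jarid2 differed by -0.17 ± 0.13 and Mtf2 by 0.03 ± 0.11 (log2, SE). Among transcripts Jarid2-001 was the only member called, against 1.19% of all transcripts (0.951% higher): it averaged 219 ± 28.7 CPM with dT added and 120 ± 48.2 CPM without (SD, n = 6 each), and it rose by 0.96 ± 0.21 (log2, SE; edgeR adjusted p = 0.0385). A further 13 members had an unadjusted p under 0.05. The call was lost without any 1 of 9 of the 12 libraries, with RLE size factors (adjusted p = 0.0847) and with a replicate block (adjusted p = 0.0552).

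Mixed primers (N6dT and NSRdT) were set against dT alone to see what the random part adds. No gene was called by edgeR or by DESeq2 (background 10.2%), and 2 had an unadjusted p under 0.05: Mtf2 at -0.38 ± 0.13 (adjusted p = 0.0825) and Aebp2 at 0.74 ± 0.30 (log2, SE; adjusted p = 0.136). At the transcript level 5 members rose and none fell, against 4.04% called among all transcripts (3.07% higher): Ezh2-015, Eed-004, Suz12-004, Jarid2-002 and Jarid2-004. All 5 were at 0 after rounding in the 3 dT libraries, so they passed the filter only through other groups and nothing is read from their direction. The call for Eed-004 was lost without any 1 of 7 of the 9 libraries and with a replicate block (adjusted p = 0.0658), and that for Jarid2-004 without any 1 of the 3 dT libraries. The comparisons with dT alone share those 3 libraries, and the values of Jarid2-002, for example, averaged 31.8 ± 27.4 CPM in the 6 mixed libraries and 128 CPM in the 6 random-primer libraries against the same 0.

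Against bulk RNA, where the 10 pg and 200 ng inputs, the kit and the PCR cycles change together and cannot be told apart, each primer set had 1 to 3 members called, all of them higher than bulk under TMM scaling. Under library totals alone 4 of these 7 values turned lower: Mtf2 in N6 (-0.76, adjusted p = 0.00198), Suz12 in N6dT (-0.60, adjusted p = 0.00491), Suz12 in NSR (-0.27, adjusted p = 0.145) and Ezh2 in NSRdT (-0.21, adjusted p = 0.144). NSRdT gave 1, Ezh2 (0.51 ± 0.10, adjusted p = 0.0359), against 5.28% of genes (2.69% higher). N6dT gave 1, Suz12 (0.60 ± 0.13, adjusted p = 0.0442), against 4.79% (2.7% higher). NSR gave 1, again Suz12 (0.74 ± 0.14, adjusted p = 0.0240), against 8.67% (4.01% higher). N6 gave 1, Mtf2 (0.61 ± 0.12, adjusted p = 0.0297), against 7.21% (3.31% higher). With dT, 3 were called against 18.8% (6.9% higher): Suz12 (0.88 ± 0.16, adjusted p = 0.0129), Mtf2 (0.90 ± 0.18, adjusted p = 0.0157) and Pcgf6 (1.21 ± 0.32, adjusted p = 0.0475; all log2 with SE, edgeR). Whether the sets differ in this from one another was tested only through the direct comparisons between primers above. Without bulk replicate 2 no member was called in any of the 5 sets by edgeR. Suz12 was then at 0.51 in N6dT (adjusted p = 0.185), 0.65 in NSR (adjusted p = 0.111) and 0.80 in dT (adjusted p = 0.0634). Mtf2 was at 0.51 in N6 (adjusted p = 0.109) and 0.81 in dT (adjusted p = 0.0664), Pcgf6 at 1.19 in dT (adjusted p = 0.160) and Ezh2 at 0.48 in NSRdT (adjusted p = 0.185). Each of these calls was also lost without bulk replicate 1 and without bulk replicate 3. Ring1 was lower than bulk in every set, by 0.79 (dT) to 1.43 (NSRdT) on the log2 scale, and was called in none (adjusted p = 0.170 to 0.663). Without bulk replicate 2 it was lower by 0.72 (dT) to 1.37 (NSRdT), with adjusted p = 0.515 to 0.907.

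**Figure D4:**
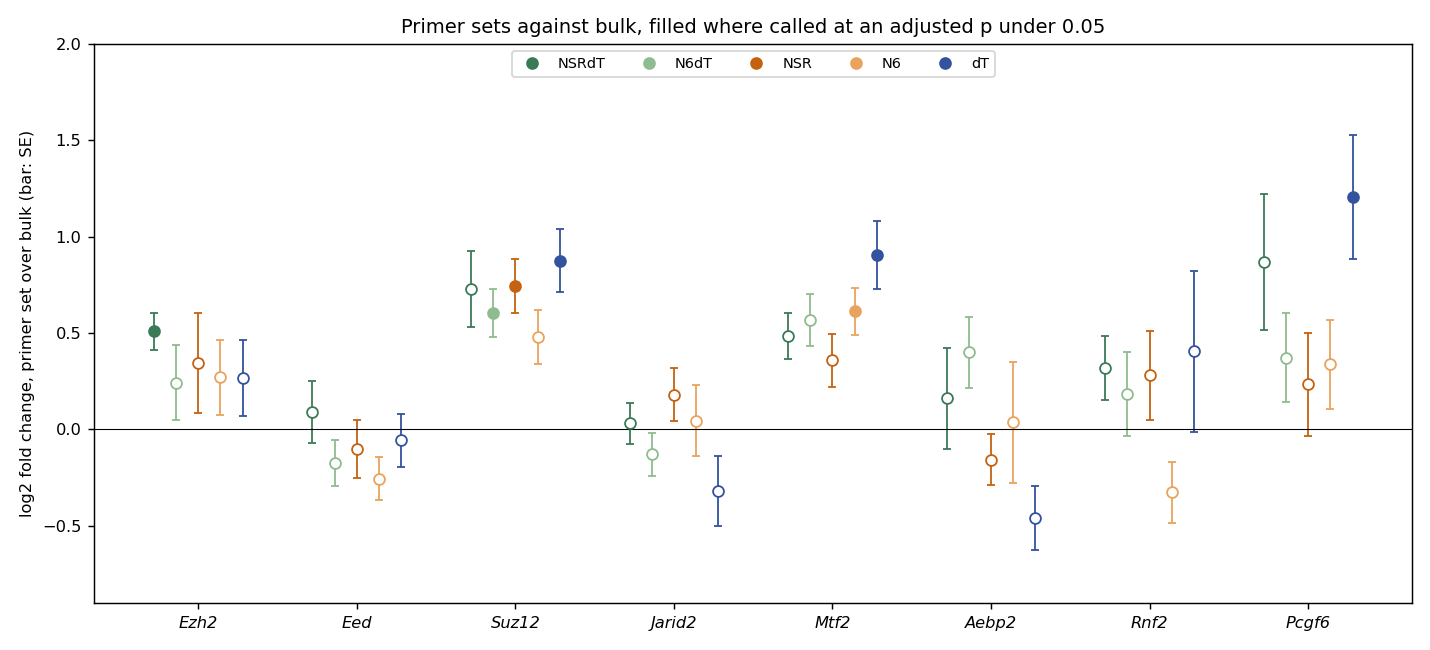
Log2 fold change of each primer set over bulk for 8 members (Phf19 and Ring1, under 10 CPM, are left out), with bars for the SE and filled points for an adjusted p under 0.05. Under TMM scaling, Suz12 and Mtf2 lie above 0 in all 5 sets, and Eed and Jarid2 lie on both sides of 0.

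The other genes of the Polycomb system, a fixed list of 52 in the table, were compared in the same way. Of 50 tested, 9 rose and 5 fell with random primers, against 9.54% higher and 7.54% lower among all genes, and their median was 0.25 against 0.13 over all genes. Whether they differ from the 10 members was not tested. Of the other PRC2 genes 3 of 6 fell and none rose (median -0.68). They were the histone chaperones Rbbp4 (156 ± 8.94 CPM in N6 and NSR, 245 ± 38.8 CPM in dT; -0.65 ± 0.12, adjusted p = 0.00169) and Rbbp7 (-0.70 ± 0.17, adjusted p = 0.0116), and E130012A19Rik, named Epop in RefSeq (-0.75 ± 0.15, adjusted p = 0.00223). Of the genes that oppose methylation of H3 lysine 27, 5 of 6 rose and none fell (median 1.32). These were the H3 lysine 36 methyltransferases Nsd1 (512 ± 109 CPM in N6 and NSR, 165 ± 27.3 CPM in dT; 1.62 ± 0.17, adjusted p = 2.75e-06) and Setd2 (0.68 ± 0.23, adjusted p = 0.0499), the H3 lysine 4 methyltransferases Kmt2c (1.63 ± 0.41, adjusted p = 0.0126) and Kmt2d (2.72 ± 0.30, adjusted p = 6.64e-06), and the demethylase Kdm6a (1.02 ± 0.32, adjusted p = 0.0379; all log2 with SE, edgeR). The call for Setd2 was lost without any 1 of 7 of the 9 libraries and that for Kdm6a without any 1 of 6. Of the genes of the H2A deubiquitinase complex 3 of 8 rose (median 0.86): Asxl2, Hcfc1 and Ogt, by 1.01 ± 0.25, 1.16 ± 0.20 and 0.71 ± 0.18 (adjusted p = 0.00999, 0.000571 and 0.0145). Asxl2 was not called without dT replicate 1, nor Ogt without dT replicate 2. Of 17 genes of variant PRC1 (median -0.13), the transcription factor Mga rose (1.47 ± 0.22, adjusted p = 0.000151), while Wdr5 (-0.93 ± 0.16, adjusted p = 0.000772) and Cbx3 (-0.83 ± 0.14, adjusted p = 0.000540) fell. The most abundant, Usp7, was at 0.17 ± 0.15. None of 5 other Pcgf-family genes (median 0.01; Pcgf3 0.03 ± 0.40, Pcgf2 0.61 ± 0.33) and none of 8 canonical PRC1 genes (median 0.44; Phc1 -0.18 ± 0.17, Cbx7 -0.29 ± 0.23) was called by edgeR. In both lists 0 had an unadjusted p under 0.05 and DESeq2 called 0. Scaled by library totals alone, with the shift of all genes given above, 7 of the 9 genes that rose were not called: Setd2 and Ogt turned lower, at -0.25 and -0.22, and Asxl2 (0.07), Kdm6a (0.08), Hcfc1 (0.23), Mga (0.54) and Kmt2c (0.69) stayed above 0.

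Length went with these differences. The 5 listed genes that fell have main transcripts of 1889 to 4407 nt and the 9 that rose have 5384 to 19823 nt. Over all protein-coding genes tested, in length ranges chosen after the values were seen, the median log2 fold change of random primers against dT was -1.35 up to 1000 nt, -0.68 up to 2000 nt, -0.25 up to 3000 nt, 0.04 up to 4000 nt, 0.40 up to 6000 nt, 0.80 up to 8000 nt and 1.20 above that. The main transcripts of the 10 members lie between 2034 nt (Ring1) and 5997 nt (Jarid2), in the 3 ranges with medians from -0.25 to 0.40. Jarid2 at 0.44 and Aebp2 at 0.41 lie at the median of their range, and Ezh2 (2787 nt) at 0.05 and Eed (2067 nt) at -0.11 lie slightly above theirs. Mtf2 (4060 nt) at -0.41 and Suz12 (4373 nt) at -0.26 share the range of Jarid2 and Aebp2 but lie below its median. Also below theirs lie Pcgf6 (2098 nt) at -0.91, against -0.25, and Rnf2 (3160 nt) at -0.42 and Phf19 at -1.40, against 0.04. The part of length in any of these values was not tested.

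**Figure D5:**
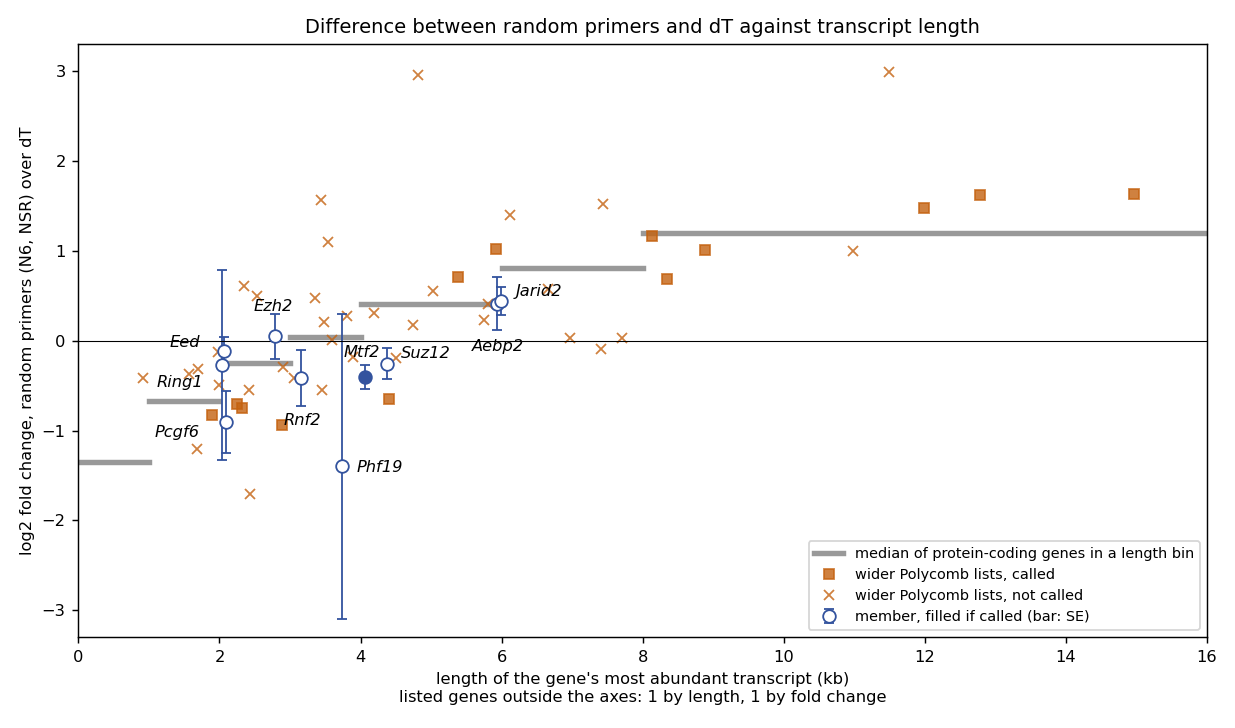
Log2 fold change of random primers over dT against the length of the main transcript (kb) for the 10 members, labelled with SE bars, the 52-gene list (squares called, crosses not called), and the median of protein-coding genes in each length range (grey lines). Members lie between -1.40 and 0.44 at 2034 to 5997 nt; Kmt2d lies beyond the length drawn and Bcorl1, at 0 in all dT libraries, beyond the fold change drawn.

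The level of each member over the 18 libraries was set beside those of 7599 genes with a mean of at least 10 CPM, by Pearson's r of log2(CPM + 1). The libraries share groups and scaling, and the values only describe likeness. Nearest were Rasa1 (0.79) and Ercc6l2 (0.77) for Ezh2, Prdx6 (0.77) and Plxnb1 (0.69) for Eed, and Trim59 (0.85) and Gm10722 (0.81) for Suz12. Fnbp1 and Copg2 (0.80 each) were nearest for Jarid2, Gm37697 and Carnmt1 (0.88 each) for Mtf2, and Fmnl2 (0.82) and Fnbp1l (0.74) for Aebp2. Tef (0.84) and Mat2b (0.78) were nearest for Rnf2, and Stam and Orc1 (0.81 each) for Pcgf6. No member was among the nearest 2 genes of another: over the 28 pairs of these 8 genes the median r was 0.08, the highest 0.61 (Suz12 and Mtf2) and the lowest -0.48 (Jarid2 and Mtf2). Several members overlap a gene on the other strand (Mtf2 with Tmed5, Rnf2 with Trmt1l, Eed with E230029C05Rik, Ezh2 with Gm26625 and Gm44282, Suz12 with Gm26563, Jarid2 with Gm22213 and Phf19 with Gm13448). The strand setting of the counts is not given in the sources used here, so reads from these pairs cannot be told apart. At most 1.65% of a member's 31-base words (Eed) occur in another gene.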

How the data were processed

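The deposited table holds estimated counts per transcript, which the authors made for 18 libraries and 92 spike-in entries and did not normalize before they were deposited; per the file headers each row names a transcript, its gene, length and class. Reads were converted with bcl2fastq 2.16.0.10 and the build is mm10, per the submitters' processing notes; which aligner, quantifier and strand setting were used is not stated there. All 15 listed RT-RamDA samples were used, although the design text speaks of 12. Spike-ins were left out, estimated counts were summed per gene and rounded, and genes or transcripts were filtered (filterByExpr), scaled (TMM) and tested with edgeR 4.0.16 (glmQLFTest; diffSpliceDGE for transcript use) in R 4.3.3, with Benjamini-Hochberg adjustment over all features; DESeq2 1.42.0 was an alternative. The 15 RT-RamDA libraries shared one fit, and each primer set was fitted with bulk alone. Library totals were 5333546 to 10234690, the floor for bounds is 3 counts per library, and intervals cover the spread between libraries only; amplified reads are not independent molecules. All 10 members are named, with listed genes that were called in random primers against dT or are the 2 most abundant of their list, the 2 genes nearest to each member and the transcripts called. The members and lists were chosen with earlier results of these data known. Transcript sequences and positions are from GENCODE vM21 (GRCm38), where 87 of 89 member transcripts matched by version and length. One stretch of Jarid2 sequence is not reported here. The edgeR steps for genes, transcripts and transcript use were tested on simulated data, with changes placed only in well-counted features. DESeq2 was not tested in this way. Same-numbered libraries did not deviate together, so they were not paired. Alternatives were DESeq2, RLE size factors, library totals alone, no filter, protein-coding transcripts alone, a replicate block and leaving out each library. Tables were handled in Python 3.11.15.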

Additional observations from a re-analysis of the deposited data

How the results depend on the processing

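Scaling by library totals alone moved the all-gene medians most: to -0.80 in random primers against dT, 0.42 in NSR against N6, 0.22 for added dT, -0.61 in mixed primers against dT, and -1.39, -1.04, -0.45, -1.23 and -0.75 in N6, NSR, dT, N6dT and NSRdT against bulk. Member genes called were then 7 in random primers against dT, 3 in NSR against N6, 5 in mixed primers against dT, and 9, 6, 8 and 3 in N6, NSR, N6dT and NSRdT against bulk. Directions reversed for Ezh2 (-0.88), Aebp2 (-0.53), Jarid2 (-0.50), Setd2 (-0.25) and Ogt (-0.22) in random primers against dT, and against bulk for Mtf2 in N6 (-0.76), Suz12 in NSR (-0.27), Suz12 in N6dT (-0.60) and Ezh2 in NSRdT (-0.21). With no filter on low counts Ezh2 turned to -0.02 in random primers against dT, and 0 members were called in N6, NSR, N6dT and NSRdT against bulk. DESeq2 called 2 members in random primers against dT and 2, 2 and 3 in N6, N6dT and NSRdT against bulk. Counting protein-coding transcripts alone gave 2 in random primers against dT (Mtf2 and Eed, both lower) and 0 in NSRdT against bulk. RLE size factors kept 1 call in random primers against dT, but for Jarid2 instead of Mtf2. The causes were not tested.

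No pairing was used: for 3049 genes, the residuals of libraries sharing a number had correlations of -0.052 to 0.0333, and 4 of 15 libraries were most like one of the same number. A replicate block gave 0 member genes in random primers against dT and 0 in N6, N6dT and NSRdT against bulk, 11 member transcripts in random primers against dT and 0 for added dT. For added dT, transcript calls were 0 with RLE size factors, 3 under library totals and 8 without a filter. In mixed primers against dT they were 8 under library totals and 11 without a filter.

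With single libraries left out, member genes called ranged from 0 to 2 in random primers against dT, 0 to 1 in mixed primers against dT, 0 to 1 in N6, 0 to 1 in NSR, 0 to 4 in dT, 0 to 2 in N6dT and 0 to 3 in NSRdT against bulk. Ezh2 ranged from -0.18 to 0.14 in random primers against dT and reversed without N6 replicate 1 (-0.06), NSR replicate 2 (-0.14) or dT replicate 1 (-0.18). Member transcripts called ranged from 7 to 12 in random primers against dT, 0 to 2 for added dT, 3 to 5 in mixed primers against dT and 7 to 12 for use within genes.

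Counts over all genes that moved beyond 1.5 times were 2679 (5148 under library totals) in random primers against dT, 27 (542 under totals, 89 without a filter, 111 by DESeq2) in NSR against N6, 341 (543 under totals, 583 by DESeq2) for added dT and 1595 (3793 under totals, 2911 by DESeq2) in mixed primers against dT. In the sets against bulk, 730 to 2957 genes were called, 3941 to 8726 under totals in the 4 sets other than dT, and 303 to 706 with the block. There DESeq2 called 1766 to 2324 and fits with no filter 367 to 668 in those 4 sets, and with single libraries left out the counts were 359 to 2151 in N6, 365 to 2581 in NSR, 299 to 5089 in dT, 207 to 1468 in N6dT and 225 to 1770 in NSRdT. For transcripts 3054 became 5116 under totals in random primers against dT, 21 became 136 under totals and 331 without a filter in NSR against N6, 429 became 1156 without a filter for added dT and 1460 became 2581 under totals and 2597 without a filter in mixed primers against dT. For use within genes, 1756 became as few as 972 with a single library left out. Phf19 and Ring1 had few counts, at under 10 CPM, and the division of reads among entries of one gene is an estimate.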
